A study of Mus musculus with 2 samples.

Results

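The collagen genes were examined in 2 Klf5-overexpressing clones of E14, a mouse embryonic stem (ES) cell line. Klf5 is a transcription factor of the Krüppel-like family that takes part in ES cell self-renewal. The members were all genes whose symbol follows the collagen pattern (Col, a type number, a, a chain number), with the major type IV chains Col4a1 and Col4a2 left out: 40 genes of the 18193 that a probe set with a single gene symbol named. Clone 2 and clone 1 were both E14 cells labelled as undifferentiated, grown in ES medium with 15% fetal bovine serum and LIF, the cytokine that sustains ES cell self-renewal, and total RNA of each clone was hybridised to 1 Affymetrix array. Both clones carry the Klf5 overexpression, and the labels do not describe the construct that drives it. The wild-type ES clones with which the study compares them were not analysed here, so no value below is an effect of Klf5.

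Collagens are secreted or membrane-bound proteins in which chains wind into a triple helix. Fibrillar collagens assemble into the fibrils of bone, cartilage, skin and vessel walls, network collagens form the sheets of basement membranes and the lattices of some specialised matrices, and transmembrane collagens sit in the plasma membrane and shed their outer part. In the early embryo the first matrix is a basement membrane, whose scaffold is type IV collagen made of Col4a1 and Col4a2 chains.

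The values are log2 signals of probe sets as the authors deposited them, and a difference is the log2 signal of clone 2 minus that of clone 1. Probe sets bind with different strength, so a higher signal of one gene than of another is not read as more of its RNA. A signal was called above background when it passed the 95th percentile of 87 probe sets for 56 genes of adult tissues, which was 6.29 in clone 2 and 6.63 in clone 1. A gene was read by its brightest probe set. There was 1 array per clone, so no p-value was computed, and SDs over the clones (n = 2) describe the spread between the arrays, which may be technical. Klf5 itself had a signal of 12.25 in clone 2 and 11.61 in clone 1. All 7 ES cell markers, among them Pou5f1 (12.43 in clone 2, 12.26 in clone 1) and Esrrb (10.57 and 10.12), passed this level in both.

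Collagen genes were mostly not detected in these cells. Of the 40 genes, 5 (12.5%) were above background in both clones, namely Col18a1, Col27a1, Col5a1, Col13a1 and Col16a1, against 48.4% of all named genes. A further 2 passed in a single clone, Col5a3 in clone 2 and Col6a2 in clone 1. Of all 18193 genes, 768 passed in clone 2 alone and 38 in clone 1 alone, where the level was higher. Each clone by itself thus had 6 collagens above background, against 52.7% of all genes in clone 2 and 48.7% in clone 1. In all, 7 of 40 collagens were above background in at least 1 clone, against 52.9% of all genes. The remaining 33 (82.5%) passed in neither. The level was set from the 56 background genes themselves, so a few of them pass by construction: 3 in both clones and 7 in at least 1. A pass in 1 clone alone is therefore weak evidence of expression, and so is a pass in both by a small margin. In bulk RNA, a gene used by few cells cannot be told apart from a gene that every cell uses weakly. The count follows the background chosen: with the level taken from sensory receptor genes (5.06 in clone 2, 5.41 in clone 1) 17 collagens (42.5%) and 62.2% of all genes passed in both clones, and with the 99th percentile (7.44 and 7.58) Col18a1 alone passed, against 37.1% of all genes.

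**Figure D1:**
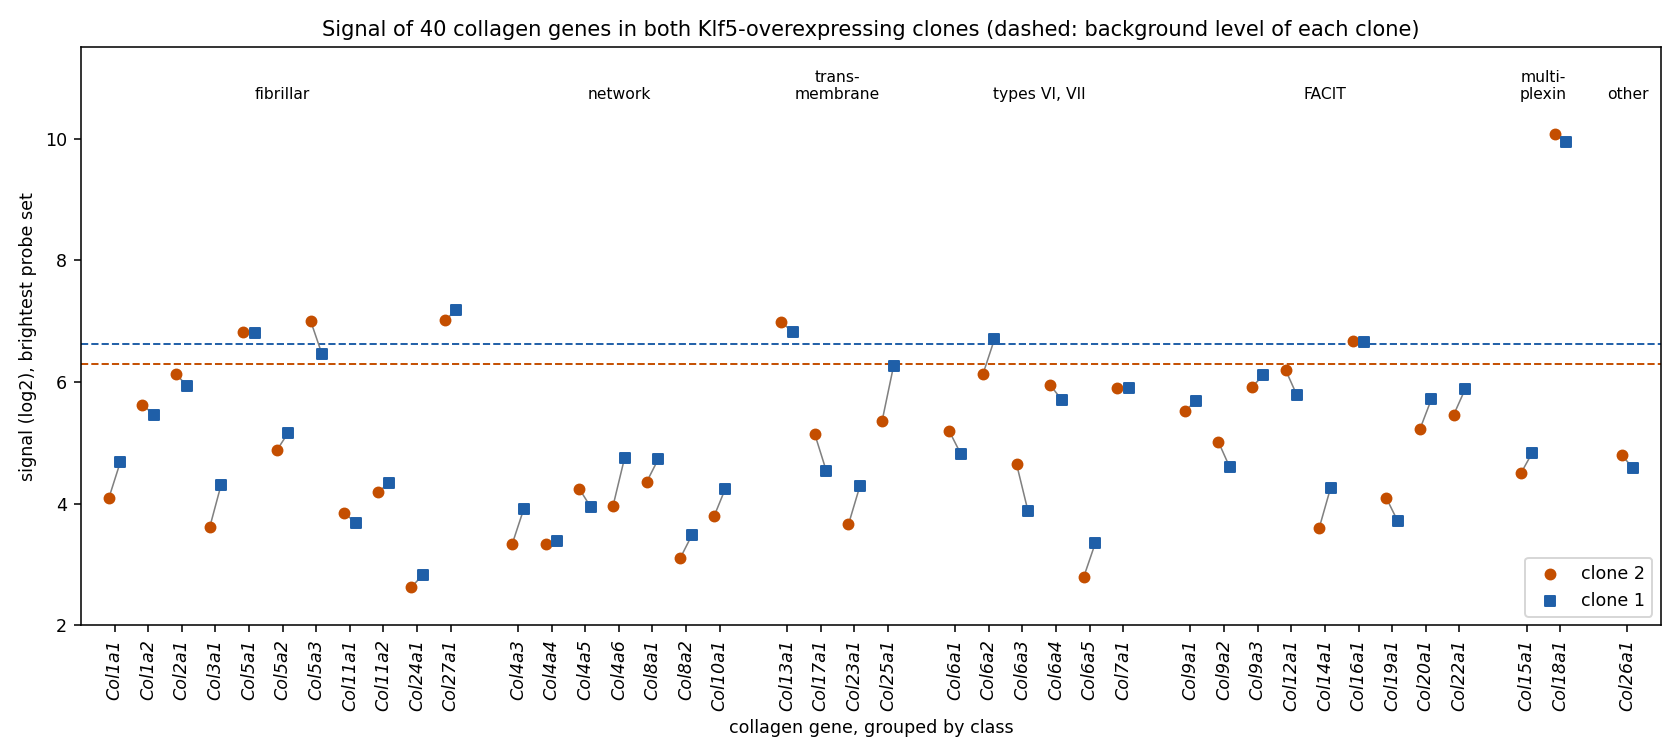
Log2 signal (vertical axis) of the brightest probe set of each of the 40 collagen genes (horizontal axis, grouped by class), with clone 2 as circles, clone 1 as squares and the background level of each clone as a dashed line in the same colour. Col18a1, at 10.08 in clone 2 and 9.94 in clone 1, is far above both lines, a few genes lie at the lines, and all 7 network genes lie below 5.

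Col18a1 was the collagen with the clearest signal over background. It encodes type XVIII collagen, a multiplexin (a collagen with many interruptions in its helix) of basement membranes whose end fragment is endostatin. Its brightest probe set had 10.08 in clone 2 and 9.94 in clone 1 (10.01 ± 0.099, SD, n = 2), which was 3.79 and 3.31 above the background levels. Its other probe set had 9.94 in clone 2 and 9.74 in clone 1, so both readings of the gene passed in both clones and both were slightly higher in clone 2. Col15a1, the other multiplexin, was not above background (4.50 in clone 2, 4.84 in clone 1). The type IV chains Col4a1 (10.53 in clone 2, 10.12 in clone 1) and Col4a2 (9.10 and 8.92), also of basement membranes, were above background in both clones.

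RefSeq lists 2 transcription starts for Col18a1. Their windows run from 250 bases before to 50 bases after the start. They are shown with those of Col5a1 (fibrillar, above background), Col3a1 (fibrillar, not above background) and Col4a5 (network, not above background). A reader can compare the base composition of collagen promoters with and without signal, though Col5a1 and Col3a1 are the extremes of GC content. All are from the GRCm38.p6 table, read along the gene; capitals mark GGGCGG on either strand (written CCGCCC on the other strand), the GC box known as a binding sequence of Sp and Klf factors.
Col18a1 upstream start, chr10:77166481-77166780, minus strand, GRCm38.p6: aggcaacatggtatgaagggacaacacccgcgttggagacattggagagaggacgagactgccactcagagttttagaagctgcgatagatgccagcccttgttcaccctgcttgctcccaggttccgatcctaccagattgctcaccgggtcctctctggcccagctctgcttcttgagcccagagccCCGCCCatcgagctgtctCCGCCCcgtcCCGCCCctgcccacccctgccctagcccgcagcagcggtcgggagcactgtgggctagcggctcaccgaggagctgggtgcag
Col18a1 downstream start, chr10:77113656-77113955, minus strand, GRCm38.p6: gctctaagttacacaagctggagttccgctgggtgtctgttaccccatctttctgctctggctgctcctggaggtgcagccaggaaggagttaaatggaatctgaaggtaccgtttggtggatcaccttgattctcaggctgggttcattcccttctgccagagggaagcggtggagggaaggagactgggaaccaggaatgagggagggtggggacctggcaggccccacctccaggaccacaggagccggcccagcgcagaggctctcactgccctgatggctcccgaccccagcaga
Col5a1, chr2:27886175-27886474, plus strand, GRCm38.p6: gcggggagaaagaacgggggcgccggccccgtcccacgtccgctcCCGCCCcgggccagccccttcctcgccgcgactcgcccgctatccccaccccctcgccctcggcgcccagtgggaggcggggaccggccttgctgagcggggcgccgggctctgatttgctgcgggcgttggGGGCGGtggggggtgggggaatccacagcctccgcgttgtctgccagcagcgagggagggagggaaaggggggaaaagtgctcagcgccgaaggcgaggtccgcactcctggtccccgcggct
Col3a1, chr1:45311288-45311587, plus strand, GRCm38.p6: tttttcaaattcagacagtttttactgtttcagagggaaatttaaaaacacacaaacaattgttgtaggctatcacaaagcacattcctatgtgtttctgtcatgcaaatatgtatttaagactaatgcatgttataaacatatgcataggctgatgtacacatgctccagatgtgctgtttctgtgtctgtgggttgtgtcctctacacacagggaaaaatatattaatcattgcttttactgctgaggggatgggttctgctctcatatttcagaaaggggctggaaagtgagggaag
Col4a5, chrX:141475169-141475468, plus strand, GRCm38.p6: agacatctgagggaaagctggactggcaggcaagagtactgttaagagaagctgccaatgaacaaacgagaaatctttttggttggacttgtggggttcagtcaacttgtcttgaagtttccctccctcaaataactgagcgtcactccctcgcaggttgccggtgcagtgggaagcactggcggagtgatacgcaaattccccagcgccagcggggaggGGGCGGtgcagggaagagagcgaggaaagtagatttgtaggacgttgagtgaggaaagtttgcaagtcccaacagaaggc

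Fibrillar collagens were above background for 3 of 11 genes, 2 of them in both clones. Col5a1, the chain of type V collagen that starts fibril assembly, had 6.83 in clone 2 and 6.81 in clone 1 (6.82 ± 0.014, SD, n = 2). A further probe set of Col5a1 gave nearly the same signal (6.82 in clone 2, 6.80 in clone 1), and the remaining one was not above background (5.11 and 5.38). Col27a1, a fibrillar chain known from growth plate cartilage, had 7.02 in clone 2 and 7.18 in clone 1 (7.10 ± 0.113, SD, n = 2) by 1 of its 2 probe sets, and 5.16 and 5.29 by the other. Both genes were only modestly above the background, by 0.54 (clone 2) and 0.18 (clone 1) for Col5a1 and by 0.73 and 0.55 for Col27a1. Col5a3, a minor chain of type V collagen, had 7.01 in clone 2 and 6.46 in clone 1, where it was not above background. The deposited values differed by 0.55, and with clone 1 raised to its background level clone 2 read 1.30-fold higher. Its other probe set (3.01 and 3.32) was not above background.

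The main fibrillar collagens of connective tissue were not above background in either clone. Type I collagen of bone and skin was read by Col1a1 (4.09 in clone 2, 4.68 in clone 1) and Col1a2 (5.63 and 5.46). Col3a1, of vessel walls and skin, had 3.61 in clone 2 and 4.31 in clone 1. The cartilage chains Col2a1 (6.13 in clone 2, 5.93 in clone 1), Col11a1 (3.85 and 3.69) and Col11a2 (4.19 and 4.34) were below the level as well, Col2a1 closest to it, by 0.16 in clone 2 and 0.70 in clone 1. Col5a2, the usual partner chain of Col5a1, had 4.88 in clone 2 and 5.17 in clone 1, and Col24a1, a fibrillar chain known from developing bone, had 2.63 and 2.83.

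Network collagens were detected for 0 of 7 genes. The type IV chains of the kidney filter Col4a3 (3.34 in clone 2, 3.91 in clone 1), Col4a4 (3.33 and 3.39) and Col4a5 (4.24 and 3.94) and the skin and smooth muscle chain Col4a6 (3.97 and 4.75) were all at least 1.88 below the background level of their clone. The same held for Col8a1 (4.36 in clone 2, 4.73 in clone 1) and Col8a2 (3.11 and 3.48), known from vessel walls and the cornea, and for Col10a1 (3.79 and 4.25) of hypertrophic cartilage. Across the 14 probe sets of these 7 genes the highest signal was 4.36 in clone 2 and 4.75 in clone 1. No network gene of the 7 passed under any of the 14 alternative settings run, which include each clone alone and settings that cannot change which genes pass. Col4a1 and Col4a2 are network collagens too and were left out by the rule that chose the genes, so the 0 of 7 describes the minor type IV chains and types VIII and X. In the RefSeq gene order, type IV genes lie in neighbouring pairs: Col4a1 and Col4a2 were both above background in both clones, and Col4a3 with Col4a4 and Col4a5 with Col4a6 were above it in neither.

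Transmembrane collagens were detected for 1 of 4 genes. Col13a1, an adhesion protein known from the neuromuscular junction, had 6.99 in clone 2 and 6.82 in clone 1 (6.91 ± 0.120, SD, n = 2) by its only probe set, 0.70 and 0.19 above background. Col17a1, the hemidesmosome collagen of skin, had 5.14 in clone 2 and 4.54 in clone 1, and Col23a1 had 3.66 and 4.29. Col25a1, known from motor neurons and muscle, had 5.36 in clone 2 and 6.26 in clone 1, the widest gap among the 40 collagens (-0.90), but it was above background in neither clone and its other probe set gave 3.17 and 2.97.

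The fibrillar class was set against the network and transmembrane classes by these counts. In both clones 2 of 11 fibrillar genes (18.2%) passed, against 1 of 11 network and transmembrane genes (9.09%), and in at least 1 clone 3 of 11 against 1 of 11. Both classes were under the 48.4% of all genes in both clones. With sensory receptor genes as background the counts in both clones were 5 and 2, with the 99th percentile 0 and 0, and with the mean over the probe sets of a gene 0 and 1. The classes thus differed by 1 to 3 genes where they differed, and the order turned under the last setting, so no order of the classes can be read from these counts.

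**Figure D2:**
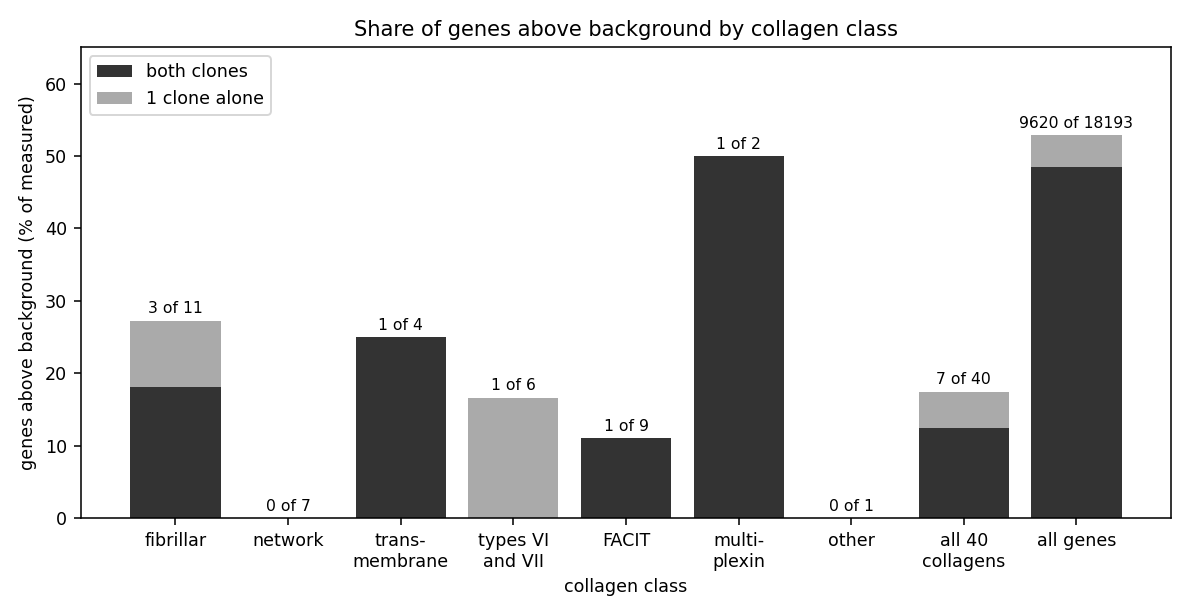
Share of measured genes above background (vertical axis, percent) in each collagen class, in all 40 collagens and in all named genes, with both clones in dark and a single clone in light. Labels give the genes that passed in at least 1 clone, of those measured: 3 of 11 fibrillar, 0 of 7 network and 1 of 4 transmembrane genes, against 9620 of 18193 genes.

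Of the 18 collagens of other classes, 2 passed in both clones (11.1%), Col18a1 and Col16a1, against 48.4% of all genes. Col16a1 is a FACIT (a fibril-associated collagen with an interrupted helix). It had 6.68 in clone 2 and 6.66 in clone 1 (6.67 ± 0.014, SD, n = 2), just over the level of clone 1 by 0.03. The other 8 FACIT genes passed in neither clone, among them Col12a1 (6.20 in clone 2, 5.78 in clone 1), which was just under the level of clone 2 by 0.09, and the cartilage chains Col9a1 (5.52 and 5.69), Col9a2 (5.02 and 4.60) and Col9a3 (5.92 and 6.11). Type VI collagen forms beaded filaments from Col6a1, Col6a2 and Col6a3 chains. Col6a2 had 6.13 in clone 2 and 6.70 in clone 1 and passed in clone 1 alone, by 0.07. With clone 2 raised to its background level, clone 1 read 1.33-fold higher. Its other probe set differed the same way (5.93 in clone 2, 6.49 in clone 1) without passing. Col6a1 (5.19 in clone 2, 4.82 in clone 1) and Col6a3 (4.65 and 3.88), the chains that join it, were not above background, nor was Col7a1 of anchoring fibrils (5.90 and 5.91). The remaining genes of these classes, Col6a4, Col6a5, Col14a1, Col19a1, Col20a1, Col22a1 and Col26a1, had between 2.80 and 5.95 in clone 2 and between 3.35 and 5.88 in clone 1.

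Several genes had probe sets that disagreed. The 40 genes were read by 79 probe sets, of which 7 passed in both clones, and 14 genes had 1 probe set. The share over all probe sets was not computed, and the 48.4% of all genes is by the brightest probe set. The 7 of 79 thus stands without a comparison. Of the 5 genes above background in both clones, Col18a1 did so by both of its probe sets, Col5a1 by 2 of 3 and Col27a1 by 1 of 2, while Col13a1 and Col16a1 have 1 each.

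No collagen gene had deposited signals that differed 2-fold between the clones. Of the 7 above background in at least 1 clone, 5 were higher in clone 2 and 2 in clone 1. Their median difference was 0.02, beside a median of 0.09 and 63.8% higher in clone 2 over all genes above background in at least 1 clone. The filter enters both: Col5a3 and Col6a2 came in through their higher clone, and of all genes 768 passed in clone 2 alone and 38 in clone 1 alone. No direction is read from these values. Differences of 2-fold or more were found for 0 of these 7 collagens and for 0.457% of all genes above background in at least 1 clone. Col18a1 was 0.14 higher in clone 2, Col13a1 0.17, Col5a1 and Col16a1 0.02 each, and Col27a1 differed by -0.16. All 5 lay inside the spread between the clones at their signal, an SD of the difference of 0.308 for the 3561 detected genes with a mean signal of 6 to 8 and of 0.223 for the 3546 genes of 9 to 12. Col5a3 (0.55) and Col6a2 (-0.57), the genes that passed in a single clone, differed by more than 1 SD. A pass in a single clone itself favours genes with a gap, so these gaps are no result about Col5a3 and Col6a2. Their folds, with the lower clone raised to its background level, leave out the spread between arrays and are no minimum of a true difference. Without the background filter the 40 genes had a median of -0.155, and the 33 genes in neither clone -0.19 with 21 of them lower in clone 2. All named genes in neither clone had a median of -0.15, with 32.9% higher in clone 2, so dim probe sets in general read lower on the array of clone 2.

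**Figure D3:**
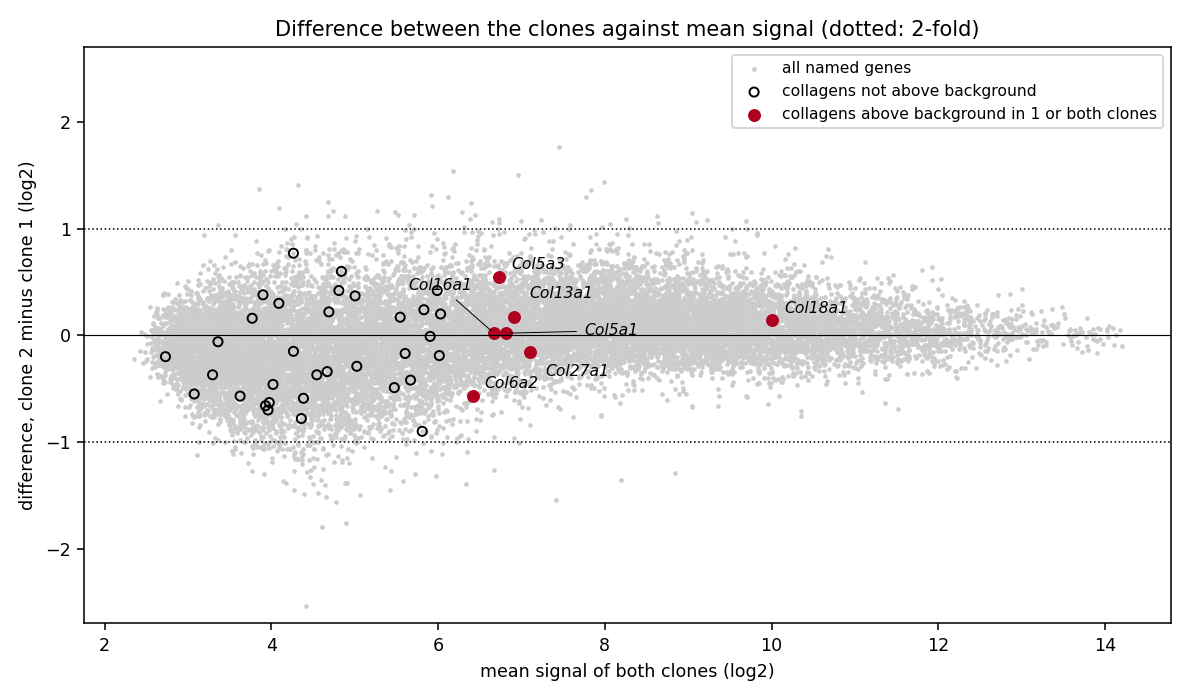
Difference between the clones (clone 2 minus clone 1, log2, vertical axis) against the mean log2 signal (horizontal axis) for all named genes in grey, collagens above background in 1 or both clones as filled points and the other collagens as open circles. All 40 collagens lie between the dotted 2-fold lines, from -0.90 (Col25a1) to 0.77 (Col6a3).

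The enzymes and chaperones that make collagens were detected far more often than the collagens themselves. Of 31 measured biosynthesis genes, both clones were above background for 20 (64.5%) and clone 2 alone for 2, against 48.4% of all genes in both clones. The hydroxylases and sugar transferases, which modify proline and lysine of the new chains, passed for 11 of 15. The prolyl hydroxylase subunits P4hb (11.63 in clone 2, 11.35 in clone 1) and P4ha1 (9.11 and 9.03), the prolyl isomerase Ppib (11.81 and 11.53), the lysyl hydroxylase Plod2 (10.07 and 10.54) and the galactosyltransferase Colgalt1 (11.00 and 10.63) were among them. P4ha3, P3h2, P3h3 and Colgalt2 were not above background, at up to 5.46 in clone 2 and 4.99 in clone 1.

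All 7 measured genes of the chaperone and export list passed in at least 1 clone, against 52.9% of all genes. In both clones 5 passed, against 48.4%. The list also holds Creb3l1 and Tmem38b, which are neither chaperones nor export proteins. Serpinh1, the collagen chaperone Hsp47, had 8.84 in clone 2 and 8.76 in clone 1, the general chaperone Hspa5 had 12.10 and 12.05, and Sec13 of the transport coat had 10.50 and 10.75. Mia3, which helps load procollagen for export, had 8.40 in clone 2 and 7.75 in clone 1, the widest gap of the 22 biosynthesis genes that passed in either clone (0.65, 1.57-fold). Fkbp14 (6.66 in clone 2, 6.41 in clone 1) and Creb3l1 (6.43 and 6.28) passed in clone 2 alone, where the level was lower. Of the same 22 genes Plod2, with 0.47 less in clone 2, had the next widest gap, and 0 differed 2-fold.

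Genes that act outside the cell or at its surface were read against the same 48.4% of all genes. Propeptide and crosslinking enzymes passed for 4 of 9 in both clones (44.4%), near that share: Pcolce (11.20 in clone 2, 10.92 in clone 1) and Pcolce2 (9.11 and 9.13), which enhance propeptide cleavage, the crosslinking oxidase Loxl1 (7.11 and 6.88) and the propeptide protease Bmp1 (6.59 and 6.78). Lox, the founding crosslinking enzyme, was not above background (4.42 in clone 2, 4.27 in clone 1). Collagen receptors passed for 2 of 9 (22.2%), Ddr1 (9.51 in clone 2, 9.33 in clone 1), a receptor tyrosine kinase, and the integrin subunit Itgb1 (8.84 and 8.86). Its collagen-binding partner chains Itga1, Itga2 and Itga10 were at most 5.89 in clone 2 and 5.96 in clone 1, not above background. Degrading enzymes passed for 2 of 7 (28.6%), the gelatinase Mmp2 (7.68 in clone 2, 7.25 in clone 1) and the membrane protease Mmp14 (7.54 and 7.29). The median differences of these 5 lists, over their genes above background in at least 1 clone, were 0.08, 0.08, 0.105, 0.08 and 0.34, beside 0.09 over all genes.

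**Figure D4:**
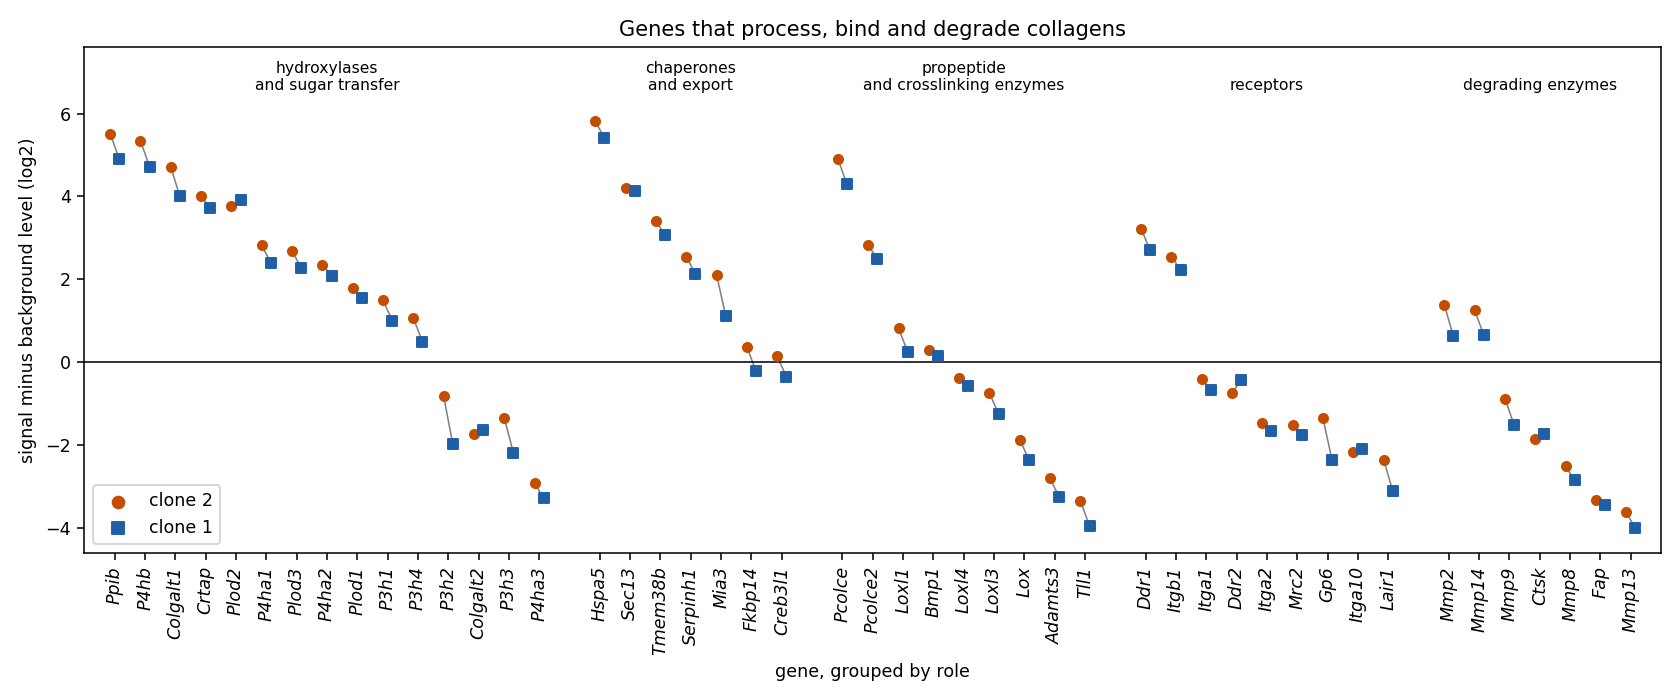
Signal minus the background level of the same clone (log2, vertical axis) for genes that process, export, bind or degrade collagens (horizontal axis, grouped by role), with clone 2 as circles and clone 1 as squares. Genes of the hydroxylase and chaperone lists lie mostly above the zero line (11 of 15 and 5 of 7 genes in both clones). Receptors and degrading enzymes lie mostly below it (2 of 9 and 2 of 7 above it in both clones).

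Markers of collagen-rich cell types were read beside these values. Of 10 fibroblast markers other than collagens 2 passed in both clones (against 48.4% of all genes), Pdgfrb (7.16 in clone 2, 7.33 in clone 1) and Thy1 (7.66 and 7.54). The other 8, with the defining genes Dcn (5.11 and 5.32), Lum and Postn among them, had at most 5.11 in clone 2 and 5.32 in clone 1. Chondrocyte markers passed for 0 of 6 in either clone (52.9% of all genes passed in at least 1), at most 5.62 in clone 2 and 5.65 in clone 1. Of 9 primitive and parietal endoderm markers, cells that lay down basement membrane, Lamb1 (9.82 in clone 2, 10.05 in clone 1), Lama1 (9.28 and 9.16) and Dab2 (8.26 and 8.32) passed in both clones (33.3%) and Sox17 (6.81 and 6.31) in clone 2. Gata4 (5.79 in clone 2, 5.59 in clone 1) and Gata6 (6.28 and 6.53) were not above background, Gata6 close under it in both. The part of any such cells in the Col18a1 signal was not tested.

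The promoter windows of 31 of the 40 genes were in the RefSeq table, 34 windows in all. The 6 windows of the 5 genes above background in both clones had a median GC content of 65.7% and a median ratio of observed to expected CpG of 0.61, and the 25 windows of genes above background in neither clone had 56.3% and 0.37. Over all genes on the array the medians were 61.3% and 0.79 for those above background in both clones, and 54.0% and 0.37 for those in neither. The ranges of the collagens overlapped widely: Col8a2 (71.7% GC, CpG ratio 0.83) and Col25a1 (60.0%, 0.86) were not above background, and the Col18a1 downstream start (59.7%, 0.23) belongs to the gene with the clearest signal. Of the sequences printed above, that of Col5a1 held 34 CpG and that of Col3a1 none, with GC contents of 75.0% and 37.7%. These are the highest and the lowest GC content of the 34 collagen windows, so this pair shows the extremes and not a typical contrast.

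Matches of the GC box GGGCGG and of CACCC, another short sequence bound by Klf factors, were counted on both strands. GGGCGG was found in 4 of the 6 windows of the genes detected in both clones (66.7%) and in 13 of the 25 in neither (52.0%), against 65.7% of the windows of all array genes detected in both and 36% of those detected in neither; the table as a whole had 35.7%. The share for the detected collagens was thus close to that of detected genes in general. CACCC was found in 6 of 6 and in 17 of 25 (68.0%), against 62.9% and 62.7% of the windows of array genes detected in both and in neither, and 57.5% of the whole table. With 6 windows of 5 genes, no difference from other genes can be read from these counts. The matches of these motifs share bases in 2 collagen windows. In the sequences above the upstream start of Col18a1 has 3 GC boxes, Col5a1 has 2, Col4a5 has 1, and the downstream start of Col18a1 and Col3a1 have none. These are matches of letters within 300 bases, and no binding was measured.

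**Figure D5:**
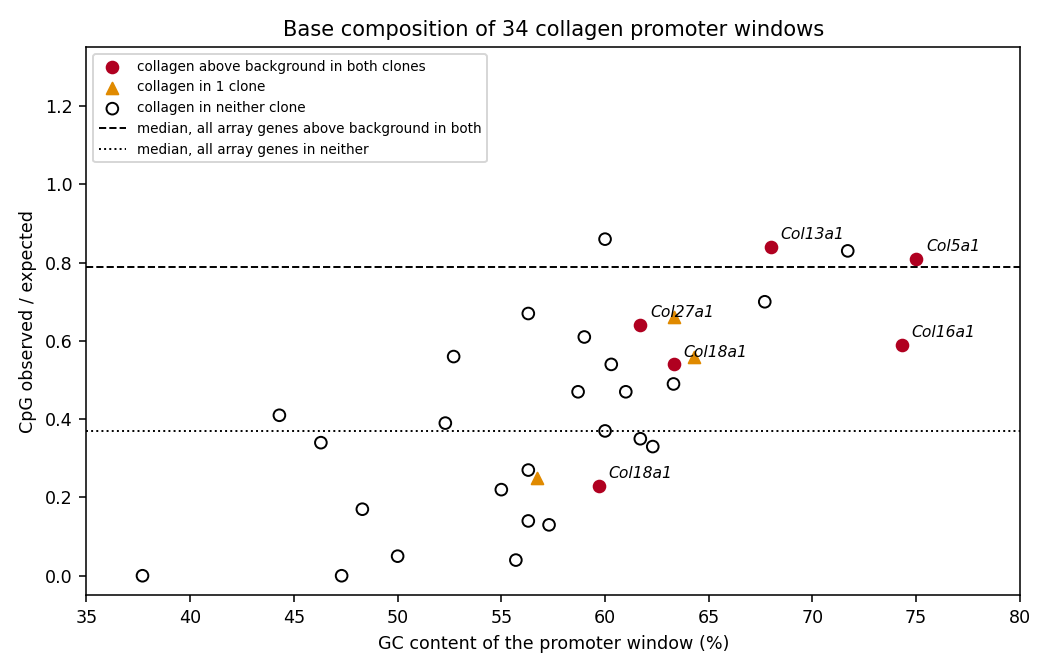
Ratio of observed to expected CpG (vertical axis) against GC content (percent, horizontal axis) of 34 collagen promoter windows of 300 bases, filled circles for genes above background in both clones, triangles for 1 clone and open circles for neither, with lines at the median CpG ratios of all array genes detected in both clones (0.79) or in neither (0.37). The filled points lie at 59.7% to 75.0% GC among open ones.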

How the data were processed

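Per the labels, total RNA of 2 Klf5-overexpressing E14 ES clones was taken with a column kit and labelled with biotin for Affymetrix arrays. The deposited table holds a log2 signal for each probe set, which the authors made with Transcriptome Analysis Console, as the submitters' processing notes name it. Neither its version, background correction, summarisation and normalization nor the log base is stated there; base 2 was inferred from the values (2.21 to 14.38, medians 5.18 in clone 2 and 5.27 in clone 1).

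Of 45037 probe sets, 34945 had 1 gene symbol in the platform annotation, 932 had several and 9160 are unnamed here; only probe sets with 1 symbol were used. RefSeq identifiers of the 40 collagens changed 0 symbols. A gene was read by its probe set with the highest mean. The background level came from adult-tissue genes (62 listed, 56 measured by 87 probe sets), of which 3 passed it in both clones and 7 in at least 1. A gene above background in 1 clone got a bound, with the other clone raised to its background level. Calculations used Python 3.11.15, pandas 2.3.3 and numpy 2.4.6, with statsmodels 0.14.6 for loess (span 0.3). The 2-fold rule was run on simulated data only with larger changes in genes well above background. Its behaviour near background, where most detected collagens lie, was not tested.

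With 1 array per clone no test was possible, and precision is limited by the number of arrays. The members, classes and lists were chosen with earlier results of these data known. The individual background genes and the list of other proteins with a collagen-like domain were written once the data were in hand. Every collagen was named, some dim ones of other classes only with the range of their values. Of each pathway or marker list, the members with the largest difference and the highest signal were to be named, up to 4; P4ha1, Serpinh1, Lox, Creb3l1, Lum, Postn, Dcn, Gata4, Gata6, Pou5f1 and the other undetected genes were added after their values were seen. The alternatives were other background levels and genes, the mean over probe sets, leaving out probe sets with an _x_at or _s_at ID, 3 normalizations, no filter, each clone alone and wider classes.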

Additional observations from a re-analysis of the deposited data

How the results depend on the processing

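Of 11 alternatives for the number of collagens above background in both clones (5), 8 stayed within 1.5 times of it and 3 did not: 1 with background at the 99th percentile, 17 with sensory receptor genes as background and 3 with the mean over the probe sets of a gene. The fibrillar count (2) became 0, 5 and 0 under the same settings, and the network and transmembrane count (1) became 0 and 2 under the first and the second of them. The collagen share stayed below that of all genes in all 14 settings run, and Col18a1 passed in all 14. The settings with a single clone used the call of that clone alone. Leaving out the filter, widening the classes and median centring cannot change which genes pass. Quantile normalization keeps the order of signals within an array, so it can hardly change it either (8816 of all genes passed in both clones, against 8814). These settings add nothing to the counts of genes that pass, although median centring and quantile normalization are among the 8 that stayed. With clone 2 alone or clone 1 alone, 6 collagens passed (Col5a3 joined in clone 2, Col6a2 in clone 1), the fibrillar count was 2 to 3, the network and transmembrane count 1 and the biosynthesis count 20 to 22. Over all alternatives the biosynthesis count (20) lay between 16 and 23. The median difference of collagens (0.02) was 0.14 with the 99th percentile, 0.17 with the mean over probe sets and -0.155 without a filter, and -0.05 and -0.032 under quantile and loess normalization, so its sign has no weight. In these settings the set of genes tested differs, 1, 3 and 40 genes in place of 7. The number of 2-fold differences stayed 0 in all 10 alternatives. Leaving Mylpf out of the background genes was chosen after the data were seen and left 5 collagens. No paired analysis was possible because there is 1 group. Most detected collagens lie within 1 log2 unit of the background, so signal over background limits the counts of all and of fibrillar collagens.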

Other observations

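Proteins with a collagen-like domain that are not named as collagens were read as well. Of 23 measured genes, 0 were above background in either clone. They included the emilin Emilin1 (6.16 in clone 2, 5.96 in clone 1), the tumour necrosis factor ligand ectodysplasin, Eda (6.04 and 5.94), and the complement subunits C1qa (4.43 and 3.73) and C1qb (3.16 and 4.05). Under the same level 52.9% of all genes passed in at least 1 clone and 48.4% in both clones. Of 6 trophoblast markers Eomes (8.60 in clone 2, 8.24 in clone 1) and Ascl2 (7.13 and 7.44) passed in both clones (33.3%). Cdx2 (4.89 and 5.38), Krt7, Gata3 and Hand1 passed in neither, at most 5.81 in clone 2 and 6.01 in clone 1.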
